A study of Mus musculus with 4 samples.

Results

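The Stk32 kinases are a family of 3 mouse genes, Stk32a, Stk32b and Stk32c, measured here in embryonic kidneys after deletion of Sall1. All probes outside the control spots whose RefSeq transcript belongs to one of these genes were taken, which gave 3 of the array's 20018 genes with a symbol and 4 of its 55681 probes. Stk32a (NM_178749, chromosome 18) had 2 probes, Stk32b (NM_022416, chromosome 5) had 1 and Stk32c (NM_021302, chromosome 7) had 1. The family was chosen by the processed signals of Stk32a, which were lower in the knockout arrays than in the control arrays, so that difference is given as a description with no test. Stk32b and Stk32c entered as its paralogues, whatever their values.

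Stk32 proteins are serine/threonine kinases of the AGC group, which is named after the kinases that respond to cyclic AMP, to cyclic GMP and to the calcium and lipid signals of protein kinase C. Many kinases of the group are switched on when Pdpk1 phosphorylates their activation loop, and the Stk32 branch is among the less studied ones. In the mouse inner ear Stk32a helps to orient vestibular hair cells, and the homeodomain factor Emx2 represses it there. Sall1 is a zinc finger transcription factor of the nephron progenitors, the self-renewing cells of the fetal kidney from which nephrons form.

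The tested kidneys were Sall1 knockout kidneys of a 129 and C57BL/6 hybrid background at E13.5 (n = 2 arrays), and they were set against control kidneys of the same background and age (n = 2 arrays). Tamoxifen, which activates the CreER recombinase, was given to all of them at E12.5, 24 hours earlier. Titles of the knockout samples name CreER and those of the control samples name flox, so an effect of CreER itself cannot be told apart from that of Sall1 deletion. The cells in which CreER is made, and whether a sample was 1 embryo or a pool, are not given in the sources used here. The p-values therefore measure the spread between these samples, which may be technical.

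All 4 arrays lay on 1 slide and held 62976 spots each, of which between 60.6% and 64.2% of those outside the controls were well above background, and none was saturated. Log2 signals are given over the array's own 75th percentile, which was 534 and 521 in the knockout arrays and 597 and 548 in the control arrays. Sall1, the targeted gene, had log2 signals of 1.03 and 1.07 in the knockout arrays and 1.79 and 1.81 in the control arrays, a difference of -0.75 ± 0.056 (SE, n = 2 each) that did not pass in limma (adjusted p = 0.126). Whether its probe lies in the deleted part is not given, so it does not check the deletion. In limma 0 of 25081 genes and unnamed sequences were called at an adjusted p under 0.05, a background of 0% in each direction. At an unadjusted p under 0.05, 1488 were lower and 1699 were higher in the knockout arrays. With a trended and robust variance prior, 164 were called lower (0.654%) and 137 higher (0.546%).

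Stk32a was far dimmer in the Sall1 knockout kidneys. Its brighter probe had processed signals of 28.5 and 23.7 in the knockout arrays, against 229 and 209 in the control arrays. The software's own error for these spots was 4.45 and 4.81 in the knockout arrays and 23.1 and 21.2 in the control arrays. Both knockout spots were the dimmer ones, and all 4 spots were well above background. On the log2 scale the signals were -4.23 and -4.46 in the knockout arrays and -1.38 and -1.39 in the control arrays. This was a difference of -2.96 ± 0.10 (SE of the limma fit, n = 2 each), or 7.76-fold lower. Replicates of the probe differed by 0.23 between the knockout arrays and by 0.0079 between the control arrays. Among the 25081 genes and unnamed sequences the difference of Stk32a ranked 3 from the lowest, behind 2 unnamed sequences that were not well above background in either knockout array. The tissue is a mixture of cells, in which fewer cells of a type and less RNA per cell cannot be told apart.

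The second Stk32a probe was dim on every array and pointed the same way. Its processed signals were 19.1 and 10.0 in the knockout arrays, neither well above background, against 31.5 and 34.8 in the control arrays, both well above background. The groups did not overlap, and the probe passed the filter only through the control arrays. Neither knockout spot was well above background, so a floor was used. It was the lowest signal well above background on each knockout array, or the probe's own where higher. At this floor the probe was 1.62-fold lower. That is no lower bound, since the raw signals gave 1.11-fold lower after local background and 1.07-fold lower with normexp (below). The measured log2 means were -5.25 ± 0.64 in the knockout arrays and -4.11 ± 0.19 in the control arrays (SD, n = 2 each), a difference of -1.14. The files give no sequence for either probe, so what part of the transcript each one reads was not analysed here.

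**Figure D1:**
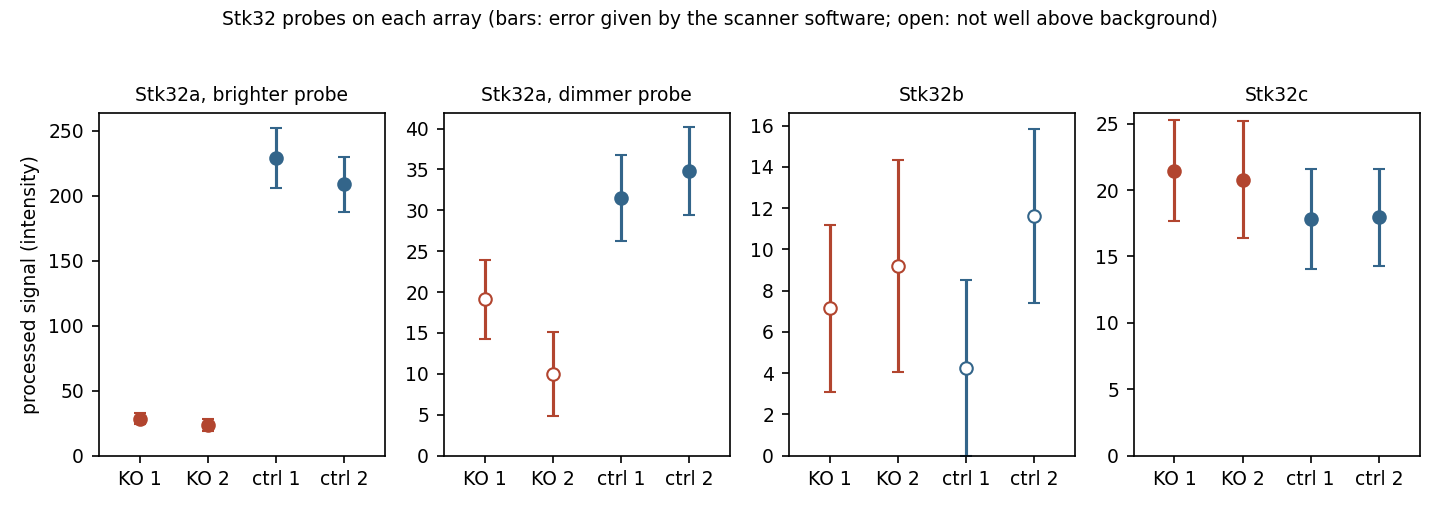
Processed signal (intensity, linear axis from 0, own scale per panel) of the 4 Stk32 probes on the Sall1 knockout arrays (KO 1 and KO 2) and the control arrays (ctrl 1 and ctrl 2); bars are the error given by the scanner software and open points were not well above background. The brighter Stk32a probe stands at 28.5 and 23.7 in the knockout arrays and at 229 and 209 in the control arrays, whereas the knockout and control bars overlap for Stk32b and for Stk32c.

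The size of the Stk32a difference depended on how background was removed and on the offset added with normexp, and its direction did not. The raw median of the brighter spot minus its local background was 55 and 57.5 in the knockout arrays and 257 and 255.5 in the control arrays. From these values, scaled by their own 75th percentile, the difference was -2.08, or 4.23-fold lower, an alternative chosen after the data were seen. With normexp correction of these raw values, with an offset of 50, it was -1.50, or 2.82-fold lower. The offset is added to every signal and by itself draws a ratio towards 1. For the dimmer probe the same raw values were 46.5 and 47.5 in the knockout arrays and 53 and 60 in the control arrays. Its difference was -0.16 from these values and -0.093 with normexp. The mean of both Stk32a probes gave -2.05. Stk32b, well above background on no array, still read 36 and 37 in the knockout arrays by median minus local background. In the control arrays it read 26.5 and 37. A remainder of this kind by itself also draws a ratio towards 1, and its share in these differences was not tested. Negative control spots, 308 per array, had a median processed signal of 3.63 and 4.52 in the knockout arrays and 3.84 and 3.71 in the control arrays. Their 99th percentile was 4.24 and 5.26 in the knockout arrays, so the brighter Stk32a probe, at 28.5 and 23.7, still gave signal above that level after Sall1 deletion.

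**Figure D2:**
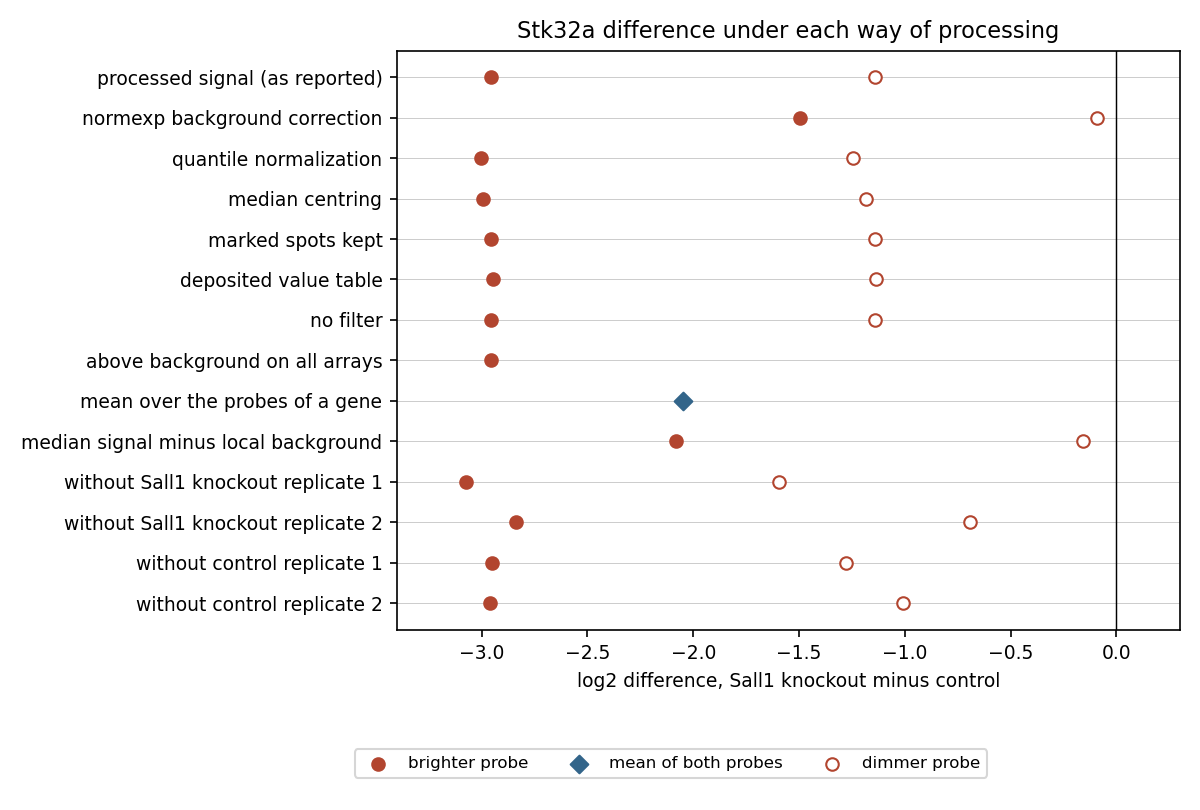
Log2 difference of Stk32a, Sall1 knockout minus control (horizontal axis), under each way of processing (rows); filled circles are the brighter probe, open circles the dimmer probe and the diamond the mean of both. The brighter probe lies between -3.07 and -2.84 when single arrays are left out and moves to -2.08 and -1.50 under the other background corrections.

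Stk32b, a paralogue whose gene is best known as a neighbour of the ciliary genes Evc and Evc2, was well above background on none of the 4 arrays. Its processed signals were 7.15 and 9.21 in the knockout arrays and 4.25 and 11.6 in the control arrays, with software errors of 4.05 and 5.14 in the knockout arrays and 4.27 and 4.21 in the control arrays. The control values span both knockout values. Set against the 99th percentile of the negative control spots on the same array, both knockout spots lay above it (4.24 and 5.26), and of the control spots 1 lay below it (6.33) and 1 above (4.27). No fold is given, and at this signal a change of Stk32b was not detectable. It did not pass the filter on dim probes, which kept the other 3 of the 4 probes, and so was not tested in limma.

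Stk32c, the third paralogue, was dim but well above background on all 4 arrays. Its processed signals were 21.4 and 20.8 in the knockout arrays and 17.8 and 18.0 in the control arrays. Both knockout spots were the brighter ones and the groups did not overlap, yet the gap between them was smaller than the software's error of any single spot, which ranged from 3.67 to 4.41. Log2 signals were -4.64 and -4.65 in the knockout arrays and -5.07 and -4.93 in the control arrays. The log2 difference was 0.36 ± 0.074 (SE, n = 2 each), or 1.28-fold higher, and did not pass in limma (adjusted p = 0.284). Over the alternatives the adjusted p ran from 0.258 to 0.572. By the second description used here, at least 1.5-fold apart without overlap of the groups, Stk32c was not counted either, and 3.54% of all genes and unnamed sequences were.

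Upstream sequences of Stk32b and Stk32c were compared for what these 2 paralogues share, with no readout here that bears on them. No window of Stk32a is given. RefSeq's promoter table (GRCm38.p6) lists 1 start site for Stk32b and 2 for Stk32c, and the 250 bases before each are printed 5′ to 3′ on the gene's strand, with CpG dinucleotides in capitals.
Stk32b, chr5:37717154-37717403, minus strand: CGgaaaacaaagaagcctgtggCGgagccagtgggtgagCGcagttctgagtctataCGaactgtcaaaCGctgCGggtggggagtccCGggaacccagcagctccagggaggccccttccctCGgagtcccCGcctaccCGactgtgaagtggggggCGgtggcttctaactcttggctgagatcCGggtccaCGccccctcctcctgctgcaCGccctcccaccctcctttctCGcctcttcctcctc
Stk32c, chr7:139188495-139188744, minus strand: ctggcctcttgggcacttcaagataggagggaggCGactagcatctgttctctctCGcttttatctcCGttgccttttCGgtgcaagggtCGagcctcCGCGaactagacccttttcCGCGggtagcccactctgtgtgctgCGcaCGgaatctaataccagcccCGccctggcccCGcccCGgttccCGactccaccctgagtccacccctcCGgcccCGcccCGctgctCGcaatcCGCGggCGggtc
Stk32c, chr7:139213308-139213557, minus strand: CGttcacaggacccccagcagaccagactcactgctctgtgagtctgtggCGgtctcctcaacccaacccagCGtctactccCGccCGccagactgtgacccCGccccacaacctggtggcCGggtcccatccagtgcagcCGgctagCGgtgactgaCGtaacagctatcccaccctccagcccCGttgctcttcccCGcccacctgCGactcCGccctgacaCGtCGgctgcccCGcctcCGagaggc
All 3 windows were rich in CpG, the dinucleotide that marks CpG island promoters. The Stk32b window held 15 and the Stk32c windows held 22 and 18, against a median of 6 over the 32817 windows of the same length in the table. At least as many as in Stk32b were found in 27.3% of those windows, and at least as many as in the Stk32c windows in 14.8% and 21.7%. The letters TATAAA, the core of a TATA box, and ATATT, an AT-rich word of the kind bound by the Sall4 paralogue of Sall1, were searched on both strands and were in none of the 3 windows. They are in 12.4% and 23.4% of all windows. GC content was 64.4% in the Stk32b window and 64.8% and 67.6% in the Stk32c windows, above the median of 52.4%. Words of A and T alone are expected less often at such base content, so these shares are no like background.

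The other kinases of the AGC group were measured beside the Stk32 genes, and none of those tested was called. Of 54 listed, 52 passed the filter and were tested, and their log2 differences ran from -0.45 to 0.92 with a median of 0.035, beside a median of -0.013 over all genes tested. In limma 0 of the 52 were called at an adjusted p under 0.05 (background 0%), and without adjustment p was under 0.05 for 8 higher and 2 lower kinases, where the background was 6.77% higher and 5.93% lower. With the trended and robust prior 0 were called. By the 1.5-fold description 2 of the 52 were higher and 0 were lower, against 2.48% higher and 1.06% lower over all genes. The count of 2 was 0 with normexp correction, 1 when a gene's probes were averaged, 1 when Sall1 knockout replicate 1 was left out and 4 when control replicate 1 was left out.

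The 2 kinases in that count were Sgk2 and Prkcb. Sgk2, a relative of the salt-regulating kinase Sgk1, had log2 signals of -3.37 and -3.50 in the knockout arrays and -4.21 and -4.49 in the control arrays. Its log2 difference was 0.92 ± 0.12 (SE, n = 2 each; limma adjusted p = 0.209). Prkcb, the beta isoform of protein kinase C, had -2.33 and -2.59 in the knockout arrays and -3.24 and -3.12 in the control arrays, a difference of 0.72 ± 0.12 (SE, adjusted p = 0.239). Both were higher on both knockout arrays and neither passed. Prkg2, a cyclic GMP-dependent kinase, had the smallest unadjusted p of the list, with -1.14 and -1.11 in the knockout arrays and -1.58 and -1.62 in the control arrays, and did not pass either (difference 0.48 ± 0.056, SE, adjusted p = 0.191). Rps6ka2, a ribosomal S6 kinase of the ERK pathway, differed by -0.45 ± 0.097 (SE, adjusted p = 0.294), the lowest of the 52. Grk3, which desensitises G protein coupled receptors, differed by 0.23 and Rps6ka4, a stress-activated histone kinase, by 0.24, each with an adjusted p above that of Rps6ka2.

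By branch of the AGC group the median differences lay between -0.041 and 0.16. The 7 kinases of the Akt and Sgk branch had a median log2 difference of 0.062, and Pdpk1, the kinase that activates many of the group, differed by 0.062 ± 0.064 (SE, adjusted p = 0.694). The 8 ribosomal S6 kinases had a median of -0.021, the 11 tested kinases of protein kinase C and N 0.077, and the 5 cyclic nucleotide dependent kinases 0.16. Medians were 0.029 for the 4 Lats and Ndr kinases of the Hippo pathway, -0.041 for the 5 Mast kinases and 0.11 for the 5 tested receptor kinases.

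**Figure D3:**
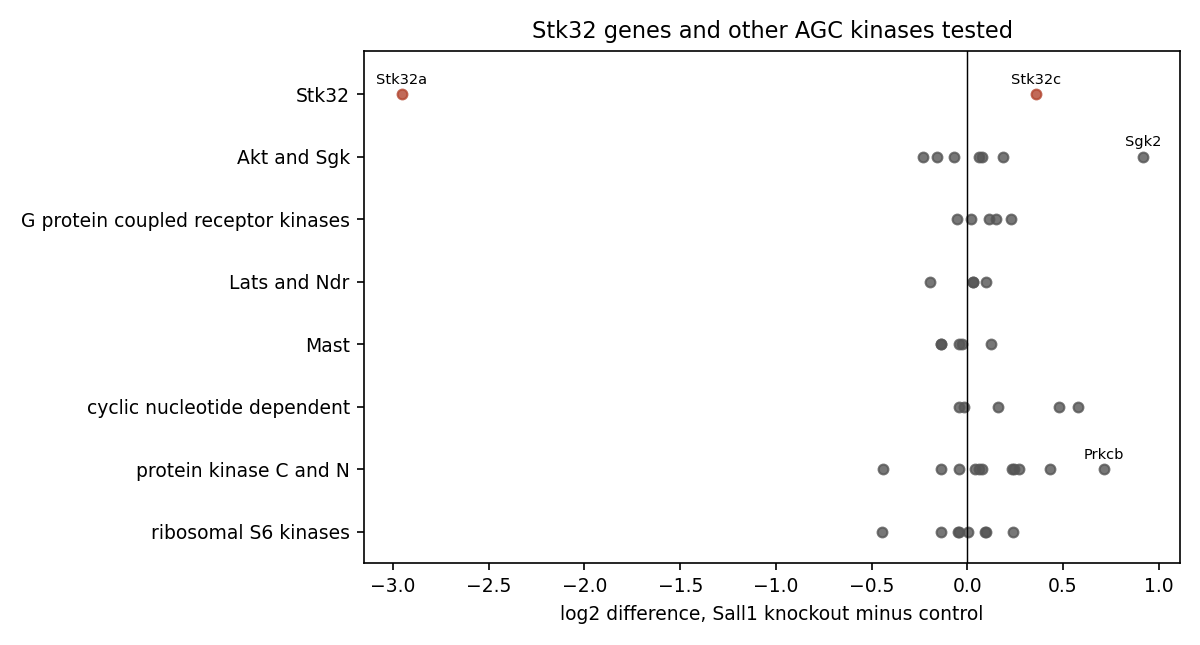
Log2 difference, Sall1 knockout minus control, of Stk32a and Stk32c (top row) and of other AGC kinases tested, in 7 branches (1 point per gene; names mark the Stk32 genes and other genes at least 1.5-fold apart without overlap). Stk32a, which was chosen for its difference, lies at -2.96, and the other kinases span -0.45 to 0.92, with Sgk2 and Prkcb at the upper end.

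Genes of hair cell orientation, the setting in which Stk32a is known from the inner ear, were measured as well. Emx2, which represses Stk32a in hair cells and is needed for kidney development, had log2 signals of 0.30 and 0.48 in the knockout arrays and 0.39 and 0.45 in the control arrays. The groups overlapped and the difference was -0.029 ± 0.085 (SE, n = 2 each; limma adjusted p = 0.896). Of the 21 genes listed for hair cell orientation and planar polarity, 20 were tested, 0 were called (background 0%), and without adjustment p was under 0.05 for 1 lower and 0 higher genes, a share near the background of 5.93% lower. Named by the rule for list members, that gene was Celsr3, a cadherin of the planar polarity system and the only one of the list at least 1.5-fold apart without overlap. It had -4.23 and -4.29 in the knockout arrays and -3.80 and -3.38 in the control arrays, a difference of -0.67 ± 0.17 (SE, adjusted p = 0.324). Vangl2, the core planar polarity gene, differed by 0.12 ± 0.079 (SE, adjusted p = 0.548).

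Each Stk32 gene lies in a block with related genes, namely a Dpysl or Crmp1 gene of axon guidance, a Jakmip gene of microtubule-linked proteins and a Ppp2r2 gene, which encodes a regulatory subunit of protein phosphatase 2A. In the RefSeq order all 9 of these genes lay on the chromosome of their Stk32 gene, between 1 and 13 genes away. Of the 9, 7 were tested and 0 were called in limma (background 0%). None was at least 1.5-fold apart without overlap, beside 3.54% of all genes and unnamed sequences, a share at which so few genes say little. Next to Stk32a, Dpysl3 had 2.84 and 2.66 in the knockout arrays and 2.69 and 2.65 in the control arrays (difference 0.085 ± 0.086, SE, adjusted p = 0.689). Jakmip2 differed by -0.092 ± 0.15 (SE, adjusted p = 0.809) and Ppp2r2b by 0.21 ± 0.25 (SE, adjusted p = 0.740), with overlapping groups in both.

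In the block of Stk32b, Crmp1 differed by -0.028 ± 0.057 (SE, limma adjusted p = 0.845) and Jakmip1 by 0.26 ± 0.11 (SE, adjusted p = 0.447), and Ppp2r2c did not pass the filter. In the block of Stk32c, Dpysl4 had 3.06 and 2.98 in the knockout arrays and 3.34 and 3.27 in the control arrays, a difference of -0.29 ± 0.066 (SE, adjusted p = 0.308) without overlap. Ppp2r2d differed by -0.041 ± 0.070 (SE, adjusted p = 0.816), and Jakmip3 did not pass the filter. Of the 24 genes closest to the 3 kinases, 4 on each side, 9 were on the array by symbol and 8 were tested, with differences from -0.29 to 0.14. Around Stk32a only 1 of its 8 closest genes was on the array and tested, namely Dpysl3, so most of them were not read. Near Stk32b, Msx1, a homeobox gene downstream of BMP signals, differed by 0.035 and Evc, a ciliary gene of Hedgehog signalling, by 0.021.

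The 8 named genes whose signals ran nearest to those of the brighter Stk32a probe were Ocm, Fgf1, Cited1, Chl1 and Spag11b, which were well above background on all 4 arrays, and Lamp5, Cyp26a1 and Ffar4, which were not in the knockout arrays. Likeness was the root mean square distance over the 4 arrays between log2 signals after each gene's own mean was removed, and among the first 5 it ran from 0.20 for Ocm to 0.64 for Spag11b. For the other 3 the knockout signals were not well above background, so their distances have no exact order. With 4 arrays it mostly ranks genes by how far the groups lie apart, so it is a description with no test. Lamp5, a lysosome-associated membrane protein of neurons, was not well above background in either knockout array. It was 1.76-fold lower at the floor used for the dimmer Stk32a probe. Ocm, the calcium buffer oncomodulin, had log2 signals of -2.49 and -2.79 in the knockout arrays and 0.087 and -0.16 in the control arrays, or 6.07-fold lower. Fgf1, a fibroblast growth factor that binds all Fgf receptors, had -1.77 and -2.40 in the knockout arrays and 0.38 and 0.42 in the control arrays, or 5.60-fold lower.

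Cited1, the marker of uncommitted nephron progenitors, had 2.00 and 1.88 in the knockout arrays and 4.08 and 4.20 in the control arrays. Chl1, an adhesion molecule of the L1 family, had -2.28 and -2.46 in the knockout arrays and -0.28 and -0.35 in the control arrays. Cyp26a1, which breaks down retinoic acid, and Ffar4, a receptor for long-chain fatty acids, were not well above background in either knockout array. At the floor used for the dimmer Stk32a probe Cyp26a1 was 2.87-fold lower and Ffar4 was 1.34-fold lower. In all 8 genes the knockout values were the lower pair, which the choice by likeness nearly fixes.

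**Figure D4:**
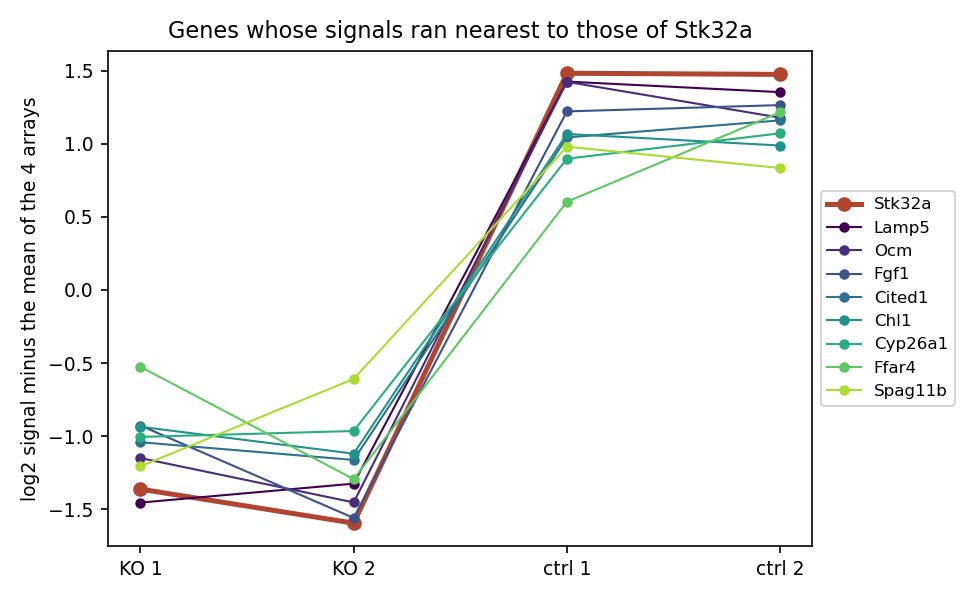
Log2 signal minus the mean of the 4 arrays (vertical axis) for Stk32a and the 8 named genes nearest to it, on the Sall1 knockout arrays (KO 1 and KO 2) and the control arrays (ctrl 1 and ctrl 2); lines join the points of a gene for reading only. Of the 5 genes well above background on all 4 arrays Ocm runs closest to Stk32a, and the knockout points of Lamp5, Cyp26a1 and Ffar4 are not well above background.

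Summed signals of several cell type marker lists differed between the groups in the same arrays, although 0 markers of any list were called in limma, and their part in the difference of Stk32a was not tested. Such a sum follows the brightest genes of its list. All 14 nephron progenitor markers were measured, and their summed signal, in units of the 75th percentile, was 99.5 and 108 in the knockout arrays and 149 and 143 in the control arrays. Their median log2 difference was -0.52, and 11 were lower without adjustment (background 5.93%). With the trended and robust prior 6 were called lower (background 0.654%), and 4 were at least 1.5-fold lower without overlap (background 1.06%), namely Cited1, Osr1, Gdnf and Spock2. Liver and gut markers, of which 10 of 11 were measured and Cdx2 was not, summed to 43.6 and 40.3 in the knockout arrays and 13.9 and 20.2 in the control arrays (median difference 1.69), and 8 of the 10 were at least 1.5-fold higher without overlap (background 2.48%). All 9 skeletal muscle markers summed to 52.8 and 34.9 in the knockout arrays and 29.1 and 12.2 in the control arrays (median 1.25). Of these 7 were at least 1.5-fold higher without overlap, while Des, the muscle intermediate filament, went the other way at -0.52 ± 0.099 (SE, adjusted p = 0.272) and was called lower with the trended and robust prior (adjusted p = 0.0458). All 8 macrophage markers summed to 9.32 and 7.98 in the knockout arrays and 6.58 and 6.17 in the control arrays (median 0.45), and 2 of them were at least 1.5-fold higher without overlap. The 17 neuron and neural crest markers summed to 38.2 and 36.9 in the knockout arrays and 40.6 and 39.8 in the control arrays (median -0.093). Snap25 made up most of each of these sums. Its log2 signals were 4.92 and 4.86 in the knockout arrays and 5.03 and 4.93 in the control arrays. Of the 17 markers, Nefl, a neurofilament gene, was the only one at least 1.5-fold lower without overlap (difference -0.80 ± 0.14, SE, adjusted p = 0.257). It was called lower with the trended and robust prior in limma (adjusted p = 0.0454).

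Adrenal cortex and gonad markers, 9 of 10 measured without Cyp11a1, summed to 10.3 and 13.8 in the knockout arrays and 9.13 and 10.4 in the control arrays, with a median difference of -0.0067. Cyp17a1 made up most of each of these sums. Its log2 signals were 3.08 and 3.56 in the knockout arrays and 2.83 and 2.99 in the control arrays. Of the 9 measured, Mc2r was the only one at least 1.5-fold apart without overlap, at -0.61 ± 0.066 (SE, limma adjusted p = 0.184). With the trended and robust prior Mc2r was called lower (adjusted p = 0.0276, background 0.654%). Mrap, Cyp17a1, Hsd3b1 and Cyp21a1 differed in the other direction, Amhr2, Gata4, Nr5a1 and Star in the same, and none was called. Median log2 differences were -0.076 for 8 nascent nephron, 0.097 for 11 ureteric bud, 0.16 for 11 stroma and 0.31 for 6 podocyte markers. They were 0.56 for 8 proximal tubule, 0.18 for 7 endothelium and 0.19 for 6 erythroid markers. At least 1.5-fold higher without overlap were 4 proximal tubule, 2 stroma and 1 podocyte markers (background 2.48%). At least 1.5-fold lower without overlap was 1 nascent nephron marker, Dkk1 (background 1.06%). In the ureteric bud, endothelium and erythroid lists 0 were counted by that description. The erythroid sum was 924 and 1627 in the knockout arrays and 878 and 1495 in the control arrays, so it differed more between replicates than between groups. With the trended and robust prior, 2 liver and gut, 2 proximal tubule, 1 macrophage, 1 stroma and 1 endothelium markers were called higher (background 0.546%). In the nascent nephron, ureteric bud, podocyte and erythroid lists 0 were called with that prior.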

How the data were processed

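RNA of 2 Sall1 knockout and 2 control kidney samples (Cy3, 0.25 µg RNA, per the labels) was read on Agilent design 028005, built on mm9, with Feature Extraction 10.7.3.1, per the file headers. The deposited processed signal is an intensity, corrected for background and trends within an array but not scaled between arrays, per the file headers. It equalled the deposited value table (medians 47.8 and 45.8 in the knockout, 52.3 and 47.1 in the control arrays) within 1% for 100% of 55249 single-spot probes. Signals were set to log2 over the array's 75th percentile, without control or marked spots. A probe was kept if both arrays of either group measured it well above background (34265). RefSeq accessions named 26413 of 55681 probes (GRCm38.p6), and a gene's probe with the highest mean stood for it. Groups, taken from the genotype labels with replicates numbered in accession order, were set against each other in R 4.3.3 by limma 3.58.1 (lmFit, eBayes, Benjamini-Hochberg over 25081 features). Normexp took the median spot signal and local background. The fit was run on simulated data as a check of the code, with variances drawn from a trended prior. It called 54.4% of simulated 2-fold falls and 95.2% of 8-fold ones, which does not give its power on these arrays. Genes were named by rule: all Stk32 probes, Sall1, block and adjacent genes, list members at least 1.5-fold apart without overlap or with the smallest p, Emx2 and the 8 nearest to Stk32a; Pdpk1 and Vangl2 were added for their roles, and Des after its value was seen. Some items named by this rule are not reported here. Members and lists were chosen with earlier results of these data known. The number of arrays limits the precision.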

Additional observations from a re-analysis of the deposited data

How the results depend on the processing

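The lower signal of Stk32a kept its direction under every alternative run, for both probes. The family was chosen for this fall, so the kept direction is a description and not support for it. Leaving out single arrays could not reverse it, because both knockout values of each probe lay below both control values. Changing the filter leaves the values of a probe as they were. The brighter probe gave -1.50 with normexp correction, -2.05 as the mean of both probes, -2.08 from the median signal minus local background (added after the data were seen), and from -3.07 to -2.84 with single arrays left out. The dimmer probe gave -0.093 with normexp, -0.16 from the median signal minus local background and from -1.59 to -0.69 with single arrays left out; it has no value where all 4 arrays must be above background. Both start from raw median signals in place of the processed signal, and the cause of the moves was not tested. Stk32c stayed higher and was not called under any alternative run (0.20 to 0.44; 0.29 to 0.43 with single arrays left out).

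Of the block genes, none was called under any alternative. Jakmip2 turned to 0.012 with normexp and ran from -0.24 to 0.053 with single arrays left out, Ppp2r2b from -0.044 to 0.46, Dpysl3 from -0.0053 to 0.17 and Ppp2r2d from -0.085 to 0.0031; the cause was not tested. Limma called 22 lower and 19 higher with normexp, 164 and 137 with the trended and robust prior, and 10 and 11 at an adjusted p under 0.1. Without overlap and at least 1.5-fold apart, 57 were lower and 174 higher with normexp, 682 and 2245 with no filter, 149 lower with all arrays above background, 78 and 201 at a 2-fold limit, and 384 to 491 lower and 827 to 870 higher with single arrays left out, where 491 is without Sall1 knockout replicate 1. AGC kinases higher by that description numbered 0 with normexp, 0 at the 2-fold limit, 1 with the mean over probes and 1 to 4 with single arrays left out; 0 to 1 were lower. No paired analysis was possible because the replicate numbers follow accession order and pair no samples. With 1 array left in a group, the lone array is assumed to vary like the others. Array number and dim signal limit what these data resolve for Stk32b and Stk32c.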
